A study of Mus musculus with 2 samples.

Results

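Tox, Tox2, Eomes, Tbx21, Prdm1, Id2, Batf, Irf4, Bhlhe40 and Nfatc1 are transcription factors known from work on effector and exhausted T cells, and their 10 rows were followed here among the 27635 genes of a single-cell mRNA table. They were chosen by name, with earlier results of these data known. Cells came from B16F10 melanomas, grown under the skin of mice and taken at day 14, from which CD3-bearing cells had been enriched by magnetic selection. Wild-type cells and cells without Nr4a were marked with hashtag antibodies, pooled and captured together, so 1 library with about 20000 cells loaded holds both genotypes. The series title names Nr4a1 and Nr4a2 as the deleted genes. The labels name 6 hashtags and do not say which marks which genotype, so every group described here is a mixture of WT and Nr4a KO cells and no genotype was compared. The animals behind each hashtag, their age and the cell types that carry the deletion are not given in the sources used here.

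Naive and progenitor CD8 T cells depend on Tcf7, which encodes TCF1, and persistent antigen drives some of their progeny into exhaustion, a state marked by inhibitory receptors such as Pdcd1 (PD-1) and Havcr2 (TIM-3). Calcium signals through NFAT proteins, together with BATF and IRF4 after T cell receptor engagement, lie upstream of TOX, which is needed for exhausted cells to persist. The T-box factors EOMES and T-bet (Tbx21), BLIMP1 (Prdm1), ID2 and BHLHE40 are known for shaping effector and exhausted cells, and BLIMP1 is also known in regulatory T cells, which carry FOXP3.

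The factors lie on 9 mouse chromosomes, and all are protein-coding genes in the GRCm38 annotation. Eomes (ENSMUSG00000032446) spans chr9:118478212-118486132 on the plus strand, Prdm1 (ENSMUSG00000038151) spans chr10:44437177-44528501 on the minus strand, Tbx21 (ENSMUSG00000001444) spans chr11:97098071-97115331 on the minus strand and Id2 (ENSMUSG00000020644) spans chr12:25093799-25097140 on the minus strand. The bases that precede the annotated RefSeq start of these 4 genes are printed because they are the factors that differed 2-fold or more between Havcr2+ and Tcf7+ CD8 cells. For Prdm1 and Id2 the RefSeq start used lies inside the gene span given above, and so do their printed bases. Each printed stretch is 250 bases, 5′ to 3′ on the gene's strand, from RefSeq's GRCm38.p6 table, with matches to any of 4 motifs in capitals.
Eomes, chr9:118477939-118478188, plus strand: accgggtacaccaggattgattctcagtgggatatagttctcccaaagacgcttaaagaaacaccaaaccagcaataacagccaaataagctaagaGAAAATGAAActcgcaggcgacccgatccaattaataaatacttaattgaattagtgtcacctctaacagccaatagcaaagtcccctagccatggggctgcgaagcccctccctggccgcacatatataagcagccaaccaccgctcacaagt
Prdm1, chr10:44458749-44458998, minus strand: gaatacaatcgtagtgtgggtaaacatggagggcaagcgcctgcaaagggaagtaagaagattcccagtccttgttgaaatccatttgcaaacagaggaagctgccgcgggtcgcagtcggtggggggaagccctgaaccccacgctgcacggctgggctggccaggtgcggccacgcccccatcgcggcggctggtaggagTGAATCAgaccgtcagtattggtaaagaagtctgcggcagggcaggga
Tbx21, chr11:97115332-97115581, minus strand: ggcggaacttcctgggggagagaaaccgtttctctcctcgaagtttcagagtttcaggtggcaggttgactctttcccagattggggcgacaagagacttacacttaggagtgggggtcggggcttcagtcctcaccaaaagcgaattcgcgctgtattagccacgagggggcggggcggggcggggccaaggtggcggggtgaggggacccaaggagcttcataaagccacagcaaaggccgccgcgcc
Id2, chr12:25096093-25096342, minus strand: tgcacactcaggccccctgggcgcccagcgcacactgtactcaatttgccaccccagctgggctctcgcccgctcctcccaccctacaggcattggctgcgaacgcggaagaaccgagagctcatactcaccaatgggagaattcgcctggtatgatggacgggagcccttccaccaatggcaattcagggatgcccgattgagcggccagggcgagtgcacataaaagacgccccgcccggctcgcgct

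The motifs were searched on both strands in windows of 300 bases that also take in the first 50 bases of the transcript. The AP-1 motif TGANTCA was found in 7.81% of all 32851 windows of the table, the T-box motif TCACACCT in 1.28%, the E-box CACGTG in 7.15% and an interferon response element motif in 3.44%. The Eomes window held 1 interferon response element match, 154 bases before the RefSeq start. The Prdm1 window held 1 AP-1 match, 48 bases before the RefSeq start used, which lies inside the gene span. The Tbx21, Id2, Batf and Irf4 windows held none of the 4 motifs, and of 5 Tox2 windows 2 that overlap held the interferon response element. In all, 11 windows for 7 of the 10 factors were in the table. A match is a string of letters in this window and no measure of binding.

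Of 12016 barcodes, 11318 held at least 500 genes and at most 25% mitochondrial counts, with a median of 26436 counts per cell (range 4142 to 892142). Clusters with T cell markers held 7838 of these cells, 69.3% of the total, so the CD3-enriched label did not describe every cell. Another 1516 cells were macrophage-like and 1013 were melanoma-like. CD8 cells were T cell-like cells with 5 or more counts of Cd8a or Cd8b1 and fewer than 5 of Cd4 (4086 cells), and CD4 cells the converse (1012 cells), while 2740 T cell-like cells held neither or both. With 1 library, there are no replicates and no test, so a difference is called only where summed counts, scaled to a common library total (CPM) and with 1 CPM added, differed 2-fold or more between groups. The intervals hold counting error at most and no spread between cells or animals. Several reads can stem from 1 molecule, so Poisson intervals of summed counts may be too narrow even for counting error. Whether they overlap is given as description only.

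A cell with 5 or more counts of a gene was positive for it, and 9 states were formed from such gates, none of which used a member of the set. Among CD8 cells, 700 were Tcf7+ without Havcr2, of which 151 were Pdcd1+ and 549 Pdcd1-. There were 1186 Havcr2+ cells without Tcf7, of which 194 were Gzmf+ (granzyme F) and 992 Gzmf-. A further 344 cells held Gzmk (granzyme K) with neither Tcf7 nor Havcr2, and the cells with none of these 3 genes were split into 805 Pdcd1+ and 1018 Pdcd1- cells. These last 2 states were not gated on Gzmf, and 8.70% and 3.34% of their cells were Gzmf+. The 33 cells with both Tcf7 and Havcr2 were too few to describe. CD4 cells were split into 302 Foxp3+ and 710 Foxp3- cells. Median depth ran from 60058 counts in Havcr2+ Gzmf+ cells to 17881 in Pdcd1- cells with none of the genes, and because a deeper cell passes a 5-count gate more easily, shares are also given after each cell was thinned to 10000 counts, with 2 or more counts as positive. Cells with fewer than 10000 counts were left out of the thinned shares, which kept 3820 of 4086 CD8 cells, 847 of 1018 Pdcd1- cells with none of the genes and 618 of 710 Foxp3- CD4 cells, so those shares describe a deeper subset.

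**Figure D1:**
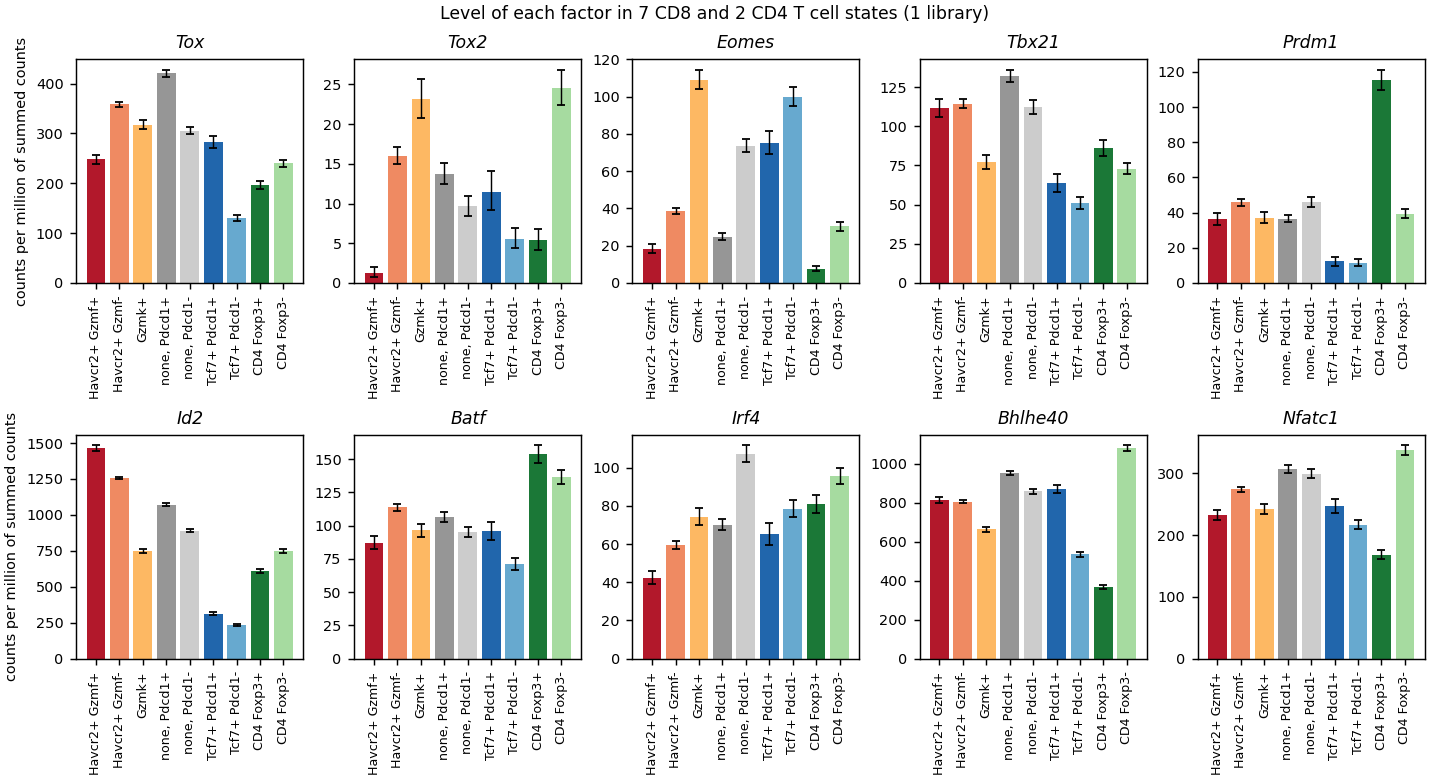
Level of each of the 10 factors (CPM of the summed counts, from 0) in 7 CD8 and 2 CD4 states of 1 library, with exact 95% Poisson intervals. These take every count as independent and hold counting error at most. Id2 has its highest bars, 1463 and 1256 CPM, in Havcr2+ cells, Eomes in Gzmk+ cells at 109 CPM and Prdm1 in Foxp3+ CD4 cells at 115 CPM.

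Tox encodes the high-mobility-group protein most tied to the exhausted programme. Its level was 420 CPM in Pdcd1+ cells with none of Tcf7, Havcr2 and Gzmk, 359 in Havcr2+ Gzmf- cells, 318 in Gzmk+ cells, 306 in Pdcd1- cells with none, 282 in Tcf7+ Pdcd1+ cells, 248 in Havcr2+ Gzmf+ cells and 130 in Tcf7+ Pdcd1- cells. In CD4 cells it was 196 CPM in Foxp3+ and 240 CPM in Foxp3- cells. Tcf7+ Pdcd1- cells were thus the lowest of the 9 states, and the Poisson intervals of the neighbouring Gzmk+ and Pdcd1- states overlapped (309 to 327 and 299 to 313 CPM). The share of positive cells had another order, led by Havcr2+ Gzmf- cells at 66.5% (95% interval 63.5 to 69.5), followed by Havcr2+ Gzmf+ at 62.9%, Pdcd1+ cells with none at 60.9%, Tcf7+ Pdcd1+ at 58.9%, Gzmk+ at 45.6%, Foxp3+ CD4 at 41.7%, Pdcd1- cells with none at 30.2%, Foxp3- CD4 at 29.4% and Tcf7+ Pdcd1- at 17.5%. After thinning, the Pdcd1+ cells with none and the Havcr2+ Gzmf- cells had nearly the same share, 56.3% and 56.2%. Melanoma-like cells, which should lack the gene, were positive in 2.67% of cells at a median depth of 193738 counts, and in 0.494% after thinning.

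Tox2, its paralogue, was sparse. It was positive in 20 of 344 Gzmk+ cells (5.81%), 58 of 992 Havcr2+ Gzmf- cells (5.85%), 28 of 805 Pdcd1+ cells with none (3.48%) and 29 of 710 Foxp3- CD4 cells (4.08%). In the other 5 states 16 cells or fewer were positive, and in Havcr2+ Gzmf+ cells only 1 of 194 was (0.515%, interval 0.013 to 2.84). The level was 23.2 CPM in Gzmk+, 16.0 in Havcr2+ Gzmf- and 24.6 in Foxp3- CD4 cells, against 1.25 CPM in Havcr2+ Gzmf+ cells. The top 1% of cells held between 32.4% of the Tox2 counts, in Havcr2+ Gzmf- cells, and 97.5%, in Tcf7+ Pdcd1- cells, with 36.1% in Gzmk+ and 38.3% in Foxp3- CD4 cells.

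Eomes, a T-box factor of memory and Gzmk-bearing cells, ran in almost the opposite order to Id2 among the gated CD8 states. It stood at 109 CPM in Gzmk+ cells, 99.9 in Tcf7+ Pdcd1-, 75.1 in Tcf7+ Pdcd1+, 73.8 in Pdcd1- cells with none, 38.8 in Havcr2+ Gzmf-, 24.9 in Pdcd1+ cells with none and 18.4 in Havcr2+ Gzmf+ cells. The intervals of the 75.1 and 73.8 CPM states overlapped, as did those of Gzmk+ (104 to 114) and Tcf7+ Pdcd1- cells (94.8 to 105). Eomes was positive in 24.4% of Gzmk+ cells (interval 19.97 to 29.3), 21.2% of Tcf7+ Pdcd1+ cells (14.97 to 28.6) and 13.8% of Tcf7+ Pdcd1- cells (11.1 to 17.0), against 12.6% of Havcr2+ Gzmf- and 7.22% of Havcr2+ Gzmf+ cells, and thinning kept Gzmk+ cells first at 18.7%. In CD4 cells it was positive in 3 of 302 Foxp3+ cells, which is within the interval of the melanoma-like share (0.218 to 1.28%), and in 24 of 710 Foxp3- cells (3.38%).

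Tbx21, which encodes T-bet and is known for driving cytotoxic and interferon-gamma programmes, had a flatter pattern. Its level was 132 CPM in Pdcd1+ cells with none, 115 in Havcr2+ Gzmf-, 112 in Havcr2+ Gzmf+, 112 in Pdcd1- cells with none, 77.2 in Gzmk+, 63.5 in Tcf7+ Pdcd1+ and 50.8 in Tcf7+ Pdcd1- cells, and 86.0 CPM in Foxp3+ and 73.1 CPM in Foxp3- CD4 cells. The states at 112 to 115 CPM had overlapping intervals. Positive cells made up 46.4% of Havcr2+ Gzmf+ cells and 10.6% of Tcf7+ Pdcd1- cells at the extremes. After thinning, Havcr2+ Gzmf+, Havcr2+ Gzmf- and Pdcd1+ cells with none lay close together at 29.5%, 29.1% and 29.8%.

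Prdm1, which encodes the repressor BLIMP1, was highest in Foxp3+ CD4 cells at 115 CPM and positive in 29.5% of them (interval 24.4 to 35.0). In CD8 cells it was 46.0 CPM in Pdcd1- cells with none, 45.8 in Havcr2+ Gzmf-, 37.2 in Gzmk+, 36.6 in Pdcd1+ cells with none and 36.2 in Havcr2+ Gzmf+ cells, and 12.2 and 11.5 CPM in Tcf7+ Pdcd1+ and Tcf7+ Pdcd1- cells. Both Tcf7+ states lay below the other 5 CD8 states, which held between 36.2 and 46.0 CPM. Positive cells were 16.4% of Havcr2+ Gzmf- and 2.00% of Tcf7+ Pdcd1- cells, and 0.592% of melanoma-like cells.

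Id2, an inhibitor that binds E proteins and favours effector over memory differentiation, was lowest in Tcf7+ and highest in Havcr2+ CD8 states. Across the CD8 states it was 234 CPM in Tcf7+ Pdcd1-, 312 in Tcf7+ Pdcd1+, 750 in Gzmk+, 891 in Pdcd1- cells with none, 1070 in Pdcd1+ cells with none, 1256 in Havcr2+ Gzmf- and 1463 in Havcr2+ Gzmf+ cells, with no overlap between the intervals of neighbours. Most neighbours were less than 2-fold apart, and intervals that do not overlap are not a call. The share of positive cells was 97.4% in Havcr2+ Gzmf+ cells and 30.4% in Tcf7+ Pdcd1- cells, and 96.4% and 31.5% in the same groups after thinning. Melanoma-like and macrophage-like cells were also positive, in 83.8% and 85.9% of cells, so neither shows a background for Id2.

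The remaining 4 factors act near the T cell receptor. Batf, an AP-1 family partner of IRF4, was highest in CD4 cells, at 154 CPM in Foxp3+ and 136 in Foxp3- cells, and ranged from 71.1 CPM in Tcf7+ Pdcd1- to 114 in Havcr2+ Gzmf- cells among CD8 states. Irf4 ranged from 42.4 CPM in Havcr2+ Gzmf+ to 107 in Pdcd1- cells with none. The order of its levels ran against the order of depth at those ends, and its positive share lay between 11.3% and 20.9% in all 9 states. Bhlhe40, a repressor linked to cytokine production, lay between 535 CPM in Tcf7+ Pdcd1- and 952 in Pdcd1+ cells with none among CD8 states, and stood at 369 CPM in Foxp3+ and 1079 CPM in Foxp3- CD4 cells. Nfatc1, a calcium-regulated NFAT factor, lay between 217 CPM in Tcf7+ Pdcd1- and 307 CPM in Pdcd1+ cells with none, and at 169 CPM in Foxp3+ and 337 CPM in Foxp3- CD4 cells. Bhlhe40 and Nfatc1 were positive in 75.3% and 20.4% of melanoma-like cells, against 1.48% for Batf and 1.38% for Irf4.

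**Figure D2:**
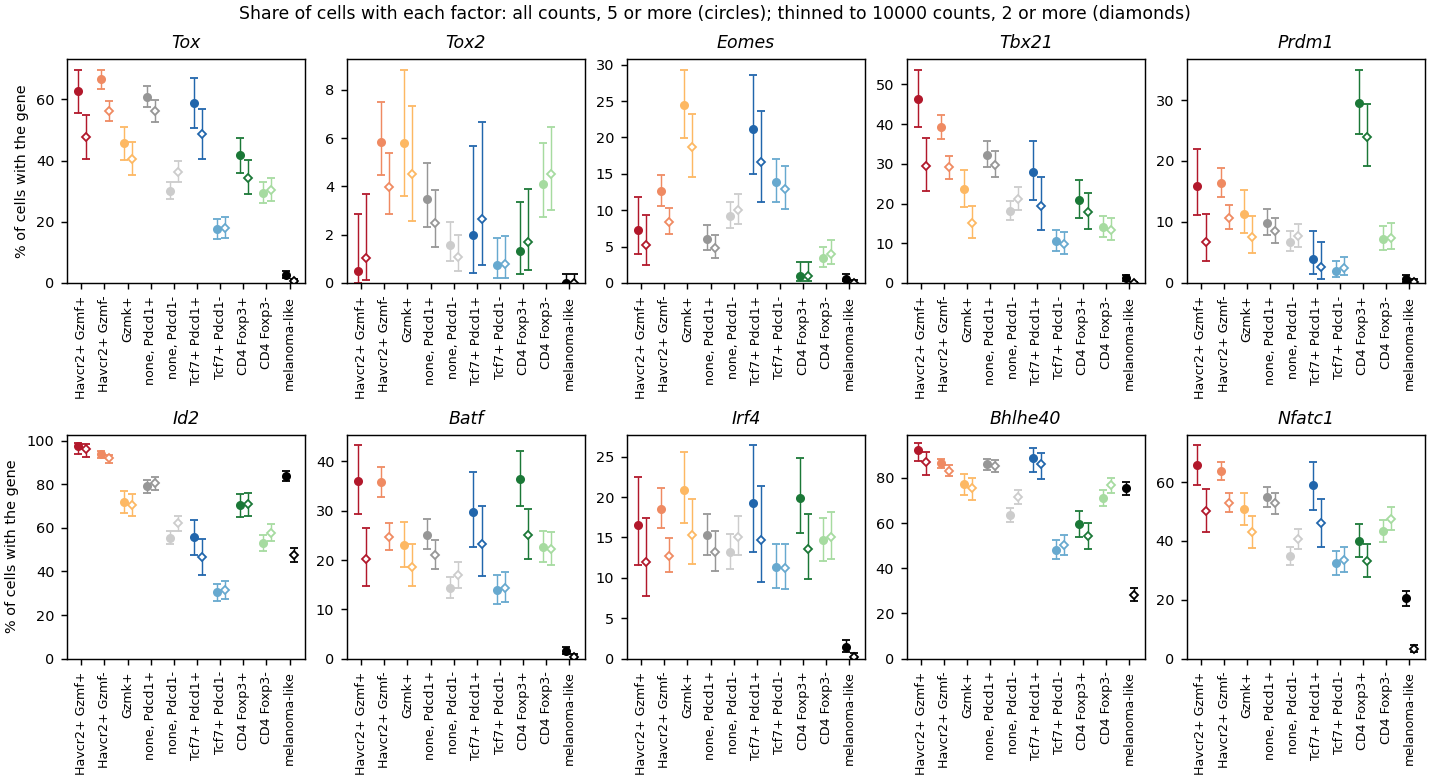
Percent of cells in which each factor was present, in the 9 T cell states and in melanoma-like cells, with exact 95% binomial intervals. Circles count cells with 5 or more counts and diamonds cells with 2 or more after thinning to 10000 counts; melanoma-like cells lie near 0 for Tox, Tox2, Eomes, Tbx21, Prdm1, Batf and Irf4, and at 83.8% for Id2 before thinning.

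The first comparison set the 1186 Havcr2+ Tcf7- CD8 cells against the 700 Tcf7+ Havcr2- CD8 cells, the TIM-3-bearing and TCF1-bearing ends of the compartment. Id2, Prdm1 and Tbx21 were higher in Havcr2+ cells and Eomes was lower. Id2 was 1298 CPM in Havcr2+ cells and 262 CPM in Tcf7+ cells (log2 ratio 2.31). Prdm1 was 43.9 CPM in Havcr2+ cells and 11.8 CPM in Tcf7+ cells (1.81), and Tbx21 was 114 CPM in Havcr2+ cells and 55.2 CPM in Tcf7+ cells (1.03). Eomes was 34.7 CPM in Havcr2+ cells and 91.3 CPM in Tcf7+ cells (-1.37).

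These were 3 of 10 factors higher, where 3.5% of the 8104 genes with a mean of at least 10 CPM were 2-fold or more higher, and 1 of 10 lower, where 5.18% of genes were. The median log2 ratio of the 10 was 0.57, and that of all genes 0.01. Tox did not reach 2-fold, at 336 CPM in Havcr2+ cells and 183 CPM in Tcf7+ cells (0.87), although its positive share was 65.9% in Havcr2+ cells and 26.4% in Tcf7+ cells, and 54.8% and 24.9% in the same groups after thinning. Tox2 stood at 0.71, Batf at 0.44, Bhlhe40 at 0.31, Nfatc1 at 0.22 and Irf4 at -0.39 on the log2 scale. The median depth was 44800 counts in Havcr2+ cells and 23509 in Tcf7+ cells, and 51.6% of Havcr2+ cells and 20% of Tcf7+ cells held the cycling genes Mki67 or Top2a. A cluster led by Klra genes, which encode Ly49 receptors, held 0.0843% of Havcr2+ cells and 40.6% of Tcf7+ cells.

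Tbx21, at 1.03, lay near the border and was past 2-fold in 12 of 14 alternatives. Without the Klra-led cluster, Tbx21 fell below 2-fold (0.73), and Tox stood at 0.52. Without cycling cells, or with cells thinned, Tox and Tox2 joined the 4 factors past 2-fold, with Tox at 1.27 and 1.24 and Tox2 at 1.87 and 1.24. In these settings 6.49% and 5.93% of all genes were higher and 5.77% and 5.89% lower, against 3.5% and 5.18% in the main setting. Counts of macrophage markers, among them Ly6c2, summed to 1489 CPM in Havcr2+ cells and 1860 CPM in Tcf7+ cells, and B cell markers to 11.6 CPM in Havcr2+ cells and 59.5 CPM in Tcf7+ cells. Without T cells that held macrophage or melanoma counts, the same 4 factors were past 2-fold.

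The surrounding genes of this comparison, taken from lists of known pathway members, moved as follows. Of 6 measured progenitor factors 5 were lower in Havcr2+ cells, led by Klf2, which keeps T cells recirculating, at 9.90 CPM in Havcr2+ cells and 190 CPM in Tcf7+ cells (-4.13), and Lef1, the TCF1 relative, at 26.1 CPM in Havcr2+ cells and 163 CPM in Tcf7+ cells (-2.60). Of 7 inhibitory receptor genes 4 were higher, led by Entpd1 (CD39, log2 ratio 4.53) and Cd38 (2.11). Of 14 effector genes 10 were higher, led by Ccl3 (4.58) and Prf1 (perforin, 3.88), and 2 were lower, Cxcr3 (-2.29) and Gzma (-1.23). Of 12 other regulators of exhaustion, Rbpj (1.23) and Zeb2 (1.00) were higher and Ikzf2 (-1.66) and Rora (-1.44) lower, and of 6 relatives of the set Irf8 alone passed 2-fold (2.14).

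**Figure D3:**
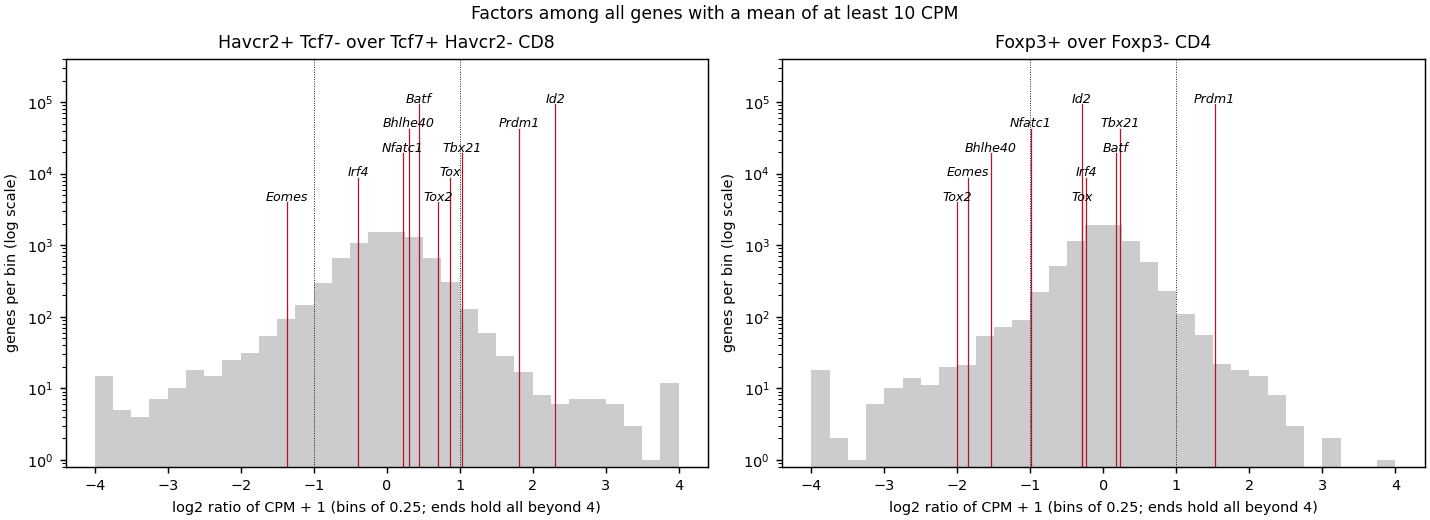
Number of genes per bin of log2 ratio (log scale on the vertical axis, genes with a mean of at least 10 CPM) for Havcr2+ over Tcf7+ CD8 cells and Foxp3+ over Foxp3- CD4 cells, with the 10 factors as vertical lines and 2-fold as dotted lines. Id2 at 2.31 and Prdm1 at 1.81 lie in the right tail of the CD8 plot, and Prdm1 at 1.52 in that of the CD4 plot.

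Within the Tcf7+ cells, the 151 Pdcd1+ cells were set against the 549 Pdcd1- cells. Tox was 282 CPM in Pdcd1+ cells and 130 CPM in Pdcd1- cells (log2 ratio 1.11), and positive in 58.9% (interval 50.7 to 66.9) of Pdcd1+ cells and 17.5% (14.4 to 20.9) of Pdcd1- cells. It was the 1 of 9 factors that passed the level filter and was 2-fold higher, with 4.79% of 8122 genes so, and none was lower, with 3.41% of genes lower. Bhlhe40 came next at 870 CPM in Pdcd1+ cells and 535 CPM in Pdcd1- cells (0.70), and was positive in 88.7% of Pdcd1+ cells and 48.3% of Pdcd1- cells. Id2 and Prdm1, which separated Havcr2+ from Tcf7+ cells, were at 0.41 and 0.08.

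Depth and cluster membership moved with this gate: the median was 46302 counts in Pdcd1+ cells and 21692 in Pdcd1- cells, and the Klra-led cluster held 9.27% of Pdcd1+ cells and 49.2% of Pdcd1- cells. After thinning, Tox was positive in 48.7% of Pdcd1+ cells and 17.95% of Pdcd1- cells, but its CPM ratio fell below 2-fold without the Klra-led cluster (0.72), and the part of that cluster in the result was not tested beyond this value. With presence set at 10 counts, Tox stood at 0.83. Of 8 progenitor factors 3 were lower in Pdcd1+ cells, led by Klf2 (-2.13) and Satb1 (-1.69), of 4 inhibitory receptor genes Lag3 was higher (1.18), and of 14 effector genes 3 were higher, led by Ccl3 (1.83) and Prf1 (1.36), and Ccl5 was lower (-1.18). Zeb2 was the one of 12 other regulators past 2-fold (1.11).

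Among Havcr2+ cells, the 194 Gzmf+ cells were set against the 992 Gzmf- cells. Eomes was 18.4 CPM in Gzmf+ cells and 38.8 CPM in Gzmf- cells (log2 ratio -1.04), and its positive share was 7.22% (interval 4.00 to 11.8) in Gzmf+ cells and 12.6% (10.6 to 14.8) in Gzmf- cells. It was the 1 of 9 factors that was 2-fold lower, against 0.507% of 7884 genes, and none was 2-fold higher, against 0.545% of genes. Tox2 lay below the level filter, with 1.25 CPM in Gzmf+ cells and 16.0 CPM in Gzmf- cells, and 1 positive cell of 194 Gzmf+ cells. Tox stood at -0.53, Irf4 at -0.48 and Id2 at 0.22. The shares of Eomes overlapped in their intervals and its ratio was below 2-fold under 5 of 14 alternatives (-0.98 to -0.61), while a mean of at least 50 CPM removed the gene. A cluster led by Gzmd, Gzme and Gzmf held 41.8% of Gzmf+ cells.

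Of 12 other regulators, Maf was lower (-1.54); of 9 inhibitory receptor rows, Cd244a (1.57) and Cd244 (1.46) were higher; and of 14 effector genes 3 were lower, led by Gzma (-2.11) and Cxcr3 (-1.97). None of 5 progenitor factors and none of 6 relatives passed 2-fold. Cd244a and Cd244 are separate rows with similar names, and reads may have been split between them.

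The 992 Havcr2+ Gzmf- cells were then set against the 344 Gzmk+ cells, which lacked Havcr2 and Tcf7. Eomes was 38.8 CPM in Havcr2+ Gzmf- cells and 109 CPM in Gzmk+ cells (log2 ratio -1.47), and stayed past 2-fold under all 14 alternatives (-1.65 to -1.31). It was positive in 12.6% (interval 10.6 to 14.8) of Havcr2+ Gzmf- cells and 24.4% (19.97 to 29.3) of Gzmk+ cells, and in 8.45% and 18.7% of the same groups after thinning. It was the only one of 10 factors lower by 2-fold, where 1.25% of 7950 genes were, and none was higher, where 0.566% of genes were. Id2 was 1256 CPM in Havcr2+ Gzmf- cells and 750 CPM in Gzmk+ cells (0.74). It passed 2-fold without cycling cells, with thinned cells and with cells weighted equally, where 3.58%, 1.41% and 1.19% of all genes were higher. Tbx21 stood at 0.56, and Tox differed by 0.18, at 359 CPM in Havcr2+ Gzmf- cells and 318 CPM in Gzmk+ cells.

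Median depths were close in this comparison, at 41479 counts in Havcr2+ Gzmf- cells and 36943 in Gzmk+ cells, as were the shares of cycling cells, 50.4% and 49.7% in the same order of groups. The cluster make-up was not matched: a Gzma-led cluster held 1.71% of Havcr2+ Gzmf- cells and 24.1% of Gzmk+ cells, and another cluster, led by Gm156 and Styk1, held 53.6% of Havcr2+ Gzmf- cells and 31.7% of Gzmk+ cells. The part of this difference in the result was not tested. Of 14 effector genes 4 were higher in Havcr2+ Gzmf- cells, led by Ccl3 (1.87) and Ccl4 (1.23), and 3 lower, led by Gzma (-2.72) and Klrg1 (-1.81). Klf2 (-1.57) and Lef1 (-1.31) were the 2 of 6 progenitor factors lower, and none of 12 other regulators, 8 inhibitory receptor genes or 6 relatives passed 2-fold.

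In CD4 cells, the 302 Foxp3+ cells, which include regulatory T cells, were set against the 710 Foxp3- cells. Prdm1 was higher in Foxp3+ cells, at 115 CPM in Foxp3+ cells and 39.4 CPM in Foxp3- cells (log2 ratio 1.52), and was positive in 29.5% (interval 24.4 to 35.0) of Foxp3+ cells and 7.18% (5.39 to 9.34) of Foxp3- cells. Bhlhe40 was lower, at 369 CPM in Foxp3+ cells and 1079 CPM in Foxp3- cells (-1.55), with 59.6% and 71.1% positive cells in the same groups. Tox2 was 5.40 CPM in Foxp3+ cells and 24.6 CPM in Foxp3- cells (-2.0), and Eomes 7.71 CPM in Foxp3+ cells and 30.4 CPM in Foxp3- cells (-1.85). Both of these last values rested on few cells, with 4 and 3 positive of 302 Foxp3+ cells for Tox2 and Eomes, and 29 and 24 of 710 Foxp3- cells.

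The set thus had 1 of 10 factors higher, where 2.84% of 8245 genes were higher, and 3 of 10 lower, where 3.86% of genes were lower. Its median log2 ratio was -0.30 and that of all genes 0.00. Nfatc1 lay at the border, at 169 CPM in Foxp3+ cells and 337 CPM in Foxp3- cells, and passed 2-fold in 6 of 14 alternatives (-1.08 to -0.63). Tox, Tbx21, Id2, Batf and Irf4 had log2 ratios between -0.30 and 0.23. Without cycling cells the Eomes ratio was -0.29, and without low-level genes (a mean of at least 50 CPM) only Prdm1 and Bhlhe40 were counted. Plasma cell markers summed to 131 CPM in Foxp3+ cells and 2412 CPM in Foxp3- cells and macrophage markers to 666 CPM in Foxp3+ cells and 362 CPM in Foxp3- cells, and the part of plasma cell counts in the result was not tested. The median depth was 32441 counts in Foxp3+ cells and 18869 in Foxp3- cells, and 43.7% of Foxp3+ cells and 25.1% of Foxp3- cells were cycling. The cluster led by Igha, Jchain, Igkc and Foxp3 held 97.0% of Foxp3+ cells and 10.7% of Foxp3- cells, while 42.3% of Foxp3- cells lay in the Gzma-led cluster and 33.1% in one led by Il3 and Csf2.

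Around these factors, Ikzf2 (Helios, log2 ratio 2.28) and Maf (1.16) were higher and Nr4a2 (-1.47) and Nr4a3 (-1.25) lower among 12 other regulators. Nr4a2 was 266 CPM in Foxp3+ cells and 739 CPM in Foxp3- cells, in a library that pools cells with and without Nr4a deletion. Of 8 progenitor factors 5 were lower, led by Tcf7 (-4.26) and Bach2 (-1.64), and of 7 inhibitory receptor genes Ctla4 (1.5) and Entpd1 (1.00) were higher. Of 15 effector genes 3 were higher, led by Klrg1 (2.42) and Il2ra (CD25, 2.28), and 4 were lower, led by Ifng (-3.22) and Gzmk (-2.17). Irf8 was the 1 of 6 relatives past 2-fold (1.15).

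All 4086 CD8 cells were last set against the 710 Foxp3- CD4 cells. None of the 10 factors differed 2-fold, with 1.56% of 8200 genes higher and 3.21% lower. Eomes came nearest on the higher side, at 53.3 CPM in CD8 cells and 30.4 CPM in Foxp3- CD4 cells (log2 ratio 0.79), and was positive in 11.8% of CD8 cells and 3.38% of CD4 cells. Over 4 single hashtags with at least 30 cells in both groups, its log2 ratio ran from -0.57 to 4.77, with a median of 2.83. The pooled value thus does not describe each hashtag. Tox2 was nearest on the lower side, at 12.8 CPM in CD8 cells and 24.6 CPM in CD4 cells (-0.89). Eomes passed 2-fold in 3 of 14 alternatives, without cycling cells, with thinned cells and with cells weighted equally. In these settings 2.28%, 1.84% and 1.77% of all genes were higher. In the lists around them, of 15 effector genes 8 were higher in CD8 cells, led by Prf1 (3.89) and Gzmb (2.68), and Cxcr3 was lower (-1.43), and of 8 inhibitory receptor genes 5 were higher, led by Cd160 (2.61) and Havcr2 (1.71). Of 12 other regulators 4 were lower, led by Maf (-2.65) and Rora (-2.12), of 8 progenitor factors 2 were lower, Bcl6 (-1.53) and Tcf7 (-1.22), and of 6 relatives Irf8 was higher (2.16).

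**Figure D4:**
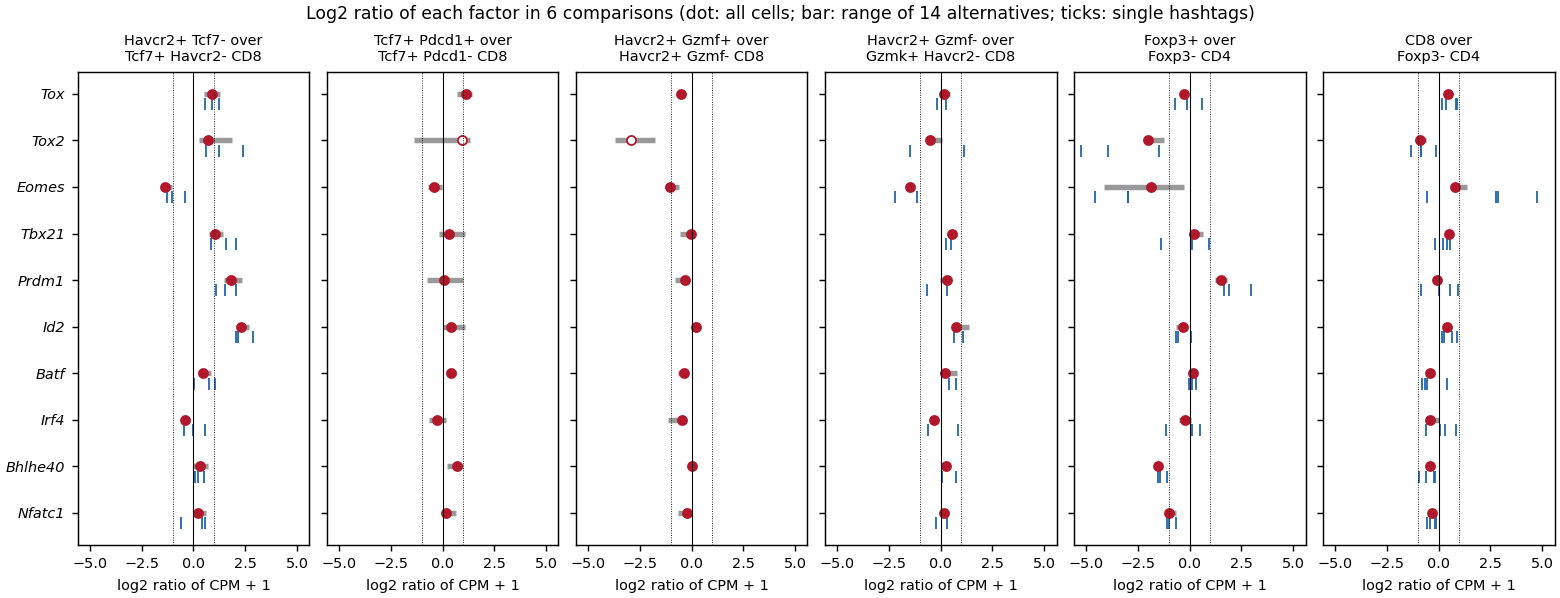
Log2 ratio of CPM + 1 for each factor in the 6 comparisons. Red dots give all cells (open where the mean was below 10 CPM), grey bars the range over 14 alternative treatments, blue ticks single hashtags with at least 30 cells in both groups, and dotted lines 2-fold; Id2 and Prdm1 stay right of 1 in the first panel for all bars and ticks, and Prdm1 and Bhlhe40 stay past 2-fold in the Foxp3 panel.

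Hashtags gave a view of how the values spread over the pooled samples, with no genotype attached. A likelihood call assigned 3610 of 7838 T cells (46.1%) to 1 of the 6 hashtags. In the Havcr2+ to Tcf7+ comparison 3 hashtags held at least 30 cells in both groups. Their Id2 log2 ratios were 2.04, 2.14 and 2.85, their Prdm1 ratios 1.08, 1.52 and 2.07, and their Tbx21 ratios 0.85, 1.56 and 2.06, all above 0. Eomes ran from -1.30 to -0.42 and Tox from 0.56 to 1.24, so these 5 factors kept their sign in all 3 hashtags. Tox2 (0.63 to 2.37), Batf (0.0014 to 1.06) and Bhlhe40 (0.07 to 0.49), which were not called, kept theirs as well. Irf4 (-0.48 to 0.57) and Nfatc1 (-0.61 to 0.56) did not.

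For Havcr2+ Gzmf- over Gzmk+ cells, 2 hashtags gave Eomes ratios of -2.20 and -1.15. For Foxp3+ over Foxp3- CD4 cells, 3 hashtags gave Prdm1 ratios of 1.68 to 2.96 and Bhlhe40 ratios of -1.51 to -1.11. Eomes in Foxp3+ cells was 0, 0 and 2.80 CPM in hashtags A0301, A0306 and A0305, and in Foxp3- cells of the same hashtags it was 6.87, 6.90 and 90.2 CPM. The level of 90.2 CPM in 68 Foxp3- cells of A0305 stood far above those of the other two. Across all CD8 cells Eomes was 60.3 CPM in A0305, below those Foxp3- CD4 cells, while in the other 3 hashtags with enough cells it was 53.8 to 56.7 CPM in CD8 cells, above the 1.07 to 6.90 CPM of their Foxp3- CD4 cells. No hashtag had 30 cells in both groups of the Pdcd1 or Gzmf gates.

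Over all CD8 cells of a hashtag, Tox ran from 304 to 396 CPM over the 6 hashtags, Eomes from 42.1 to 60.3 CPM, Tbx21 from 89.4 to 120 CPM and Id2 from 860 to 1309 CPM. Prdm1 ran from 35.0 to 62.4 CPM, Irf4 from 44.7 to 113 CPM and Tox2 from 5.61 to 20.6 CPM, and the last 2 of these spans exceed 2-fold. A0304 had the highest Tox level and positive share (64.0%, interval 57.8 to 69.8), and also the deepest cells, with a median of 39410 counts. The other 5 hashtags had shares of 45.3% to 50.6%.

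The 5 gate genes were also taken one at a time over all 4086 CD8 cells, where factors passed 2-fold only in the Tcf7 and Gzmf splits. No level filter was used here. The share of all genes past 2-fold was not computed for these splits, so the values only describe. Tcf7+ cells (733) had Id2 at 341 CPM against 1117 CPM in Tcf7- cells (3353), a log2 ratio of -1.71, and Prdm1 at 13.3 CPM against 41.8 CPM in Tcf7- cells (-1.58). Gzmk+ cells (681) had Eomes at 85.8 CPM against 43.7 CPM in Gzmk- cells (0.96). Gzmf+ cells (321) had Eomes at 20.9 CPM against 57.8 CPM in Gzmf- cells (-1.43), and Tox2 at 1.28 CPM against 14.4 CPM in Gzmf- cells. The mean of this Tox2 pair lies below the level filter of 10 CPM used for the 6 comparisons. Pdcd1+ and Pdcd1- cells differed less, with Tox at 363 CPM in Pdcd1+ cells and 256 CPM in Pdcd1- cells (0.50), and Eomes at 40.3 CPM in Pdcd1+ cells and 77.0 CPM in Pdcd1- cells (-0.92). Havcr2+ cells (1219) had Id2 at 1285 CPM against 775 CPM in Havcr2- cells (0.73), with Prdm1 at 0.38, Tbx21 at 0.19 and Tox at 0.08 on the log2 scale, all smaller than against Tcf7+ cells, and Bhlhe40 at 809 CPM against 807 CPM in Havcr2- cells.

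Co-detection was examined in the 2337 CD8 cells with Pdcd1 or Havcr2, for 6 pairs of factors. Tox was present in 82.4% (interval 73.9 to 89.1) of 108 Tox2+ cells and 62.9% (60.8 to 64.9) of Tox2- cells, and after thinning, which left 75 Tox2+ cells, in 77.3% (66.2 to 86.2) of Tox2+ cells and 54.1% (52.0 to 56.2) of Tox2- cells. In these pooled cells Tox was thus found more often in Tox2+ than in Tox2- cells, also at equal depth. The cells span several states, with Tox2 in 5.85% of Havcr2+ Gzmf- and 0.515% of Havcr2+ Gzmf+ cells. Co-detection within single states was not tested. The intervals treat cells of 1 library as independent and hold no spread between animals. Eomes, in contrast, was present in 12.5% of Tbx21+ cells and 11.5% of Tbx21- cells, and after thinning in 6.59% (4.79 to 8.81) of Tbx21+ cells and 8.93% (7.59 to 10.4) of Tbx21- cells, with overlapping intervals. Positive cells were deeper, at a median of 51828 counts in Tbx21+ cells and 34220 in Tbx21- cells.

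Tox was present in 74.5% of Eomes+ cells and 62.3% of Eomes- cells, and after thinning in 63.0% (55.7 to 69.9) of Eomes+ cells and 54.2% (52.0 to 56.3) of Eomes- cells, where the intervals overlapped. It was present in 69.9% of Tbx21+ cells and 60.3% of Tbx21- cells, and after thinning in 55.9% and 54.5% of the same groups. Batf was present in 39.2% of Irf4+ cells and 29.9% of Irf4- cells, and after thinning in 24.8% and 22.4%. Prdm1 was present in 14.5% of Id2+ cells and 5.18% of Id2- cells, and after thinning in 9.41% (8.15 to 10.8) and 5.71% (3.53 to 8.69) of the same groups. Of the 6 pairs, Tox with Tox2 alone kept clearly separate intervals at equal depth.

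Over the 9 states, the levels of some factors ran in parallel. Pearson's r of log2(CPM + 1) was 0.93 for Bhlhe40 with Nfatc1 and 0.90 for Tbx21 with Id2, and -0.71 for Eomes with Prdm1. Among 3445 genes with a mean of at least 50 CPM, the gene most like Tox was Nab1 (r = 0.96), that most like Eomes was Prkcb (0.95), with Gzma among its 3 closest (0.94), and that most like Tbx21 was H2-Q5 (0.98), followed by the inhibitory receptor gene Lag3 (0.95). Id2 was most like S100a11 (0.97), Prdm1 most like Cyp51 (0.97), Batf most like Arf4 (0.95), Irf4 most like Otud5 (0.94) and Tox2 most like Bag6 (0.96). Bhlhe40 and Nfatc1 shared Dusp6, a phosphatase of the ERK pathway, as their first match (0.95 and 0.96). The 9 points share 1 library and differ in depth, and the best of 3445 genes over 9 points is high by selection, so these values only describe.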

How the data were processed

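The deposited mRNA table gives whole-number counts for each gene in each cell, and a table of hashtag counts covers the same capture. The submitters' processing notes name build GRCm38, cutadapt 2.10, R 3.5.3 and Bowtie2 2.3.4.1 and 2.4.2. No source used here says if molecular identifiers were collapsed. Non-zero counts had a median of 7, with 56.1% over 5, and were handled as read counts. Hashtag counts existed for 11808 of the 12016 barcodes.

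Filters were at least 500 genes and at most 25% mitochondrial counts. Cells were clustered with scanpy 1.11.5 and leidenalg 0.10.2 (3000 variable genes, 40 components, 20 neighbours, resolution 1), and clusters were named by the mean log2 ratio of marker genes. Doublets were not removed, except in an alternative without the 5% highest Scrublet scores. Counts were summed per state, scaled to CPM over all genes and compared as log2 ratios after 1 CPM was added, among genes with a mean of at least 10 CPM. Exact binomial and Poisson 95% intervals used scipy 1.17.1. The ratio was tested on simulated counts, but no outcome of that test is given here, so it lends the values no weight. Columns A0301 to A0306 were taken as the labelled hashtags by the number that ends their name, and cells were assigned by a log-likelihood gain of at least 3.

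The factors, gates and gene lists were chosen with earlier results of these data known. All 10 factors are named, and from each other list at most 2 genes higher and 2 lower per comparison, by size of the log2 ratio, without the gating genes. Likeness was ranked for 3 genes per factor. A planned comparison of protein sequences was not run.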

Additional observations from a re-analysis of the deposited data

How the results depend on the processing

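The count of factors past 2-fold in the 6 comparisons was recomputed under 14 alternatives, 13 planned and 1 chosen after seeing the data (cells called for 1 hashtag). Of these 84 counts, 64 lay within 1.5 times the main one and 20 did not. The Havcr2+ to Tcf7+ count of 4 stayed between 3 and 6. With no cycling cells, thinned cells and no Klra-led cluster, 6.49%, 5.93% and 2.34% of all genes were higher and 5.77%, 5.89% and 4.05% lower. In the main setting of that comparison 3.5% were higher and 5.18% lower. For Gzmf+ over Gzmf- cells, where 1 factor was past 2-fold, the count was 0 with presence at 3 counts, at 10 counts, with 5 CPM added, with a mean of at least 50 CPM and in hashtag-called cells, and 2 with cells weighted equally, thinned cells, no level filter and no cycling cells. For Pdcd1+ over Pdcd1- Tcf7+ cells (1) it was 0 without the Klra-led cluster and 2 with thinned cells and without cycling cells. With presence at 10 counts the count stayed at 1, but Tox was below 2-fold and another factor passed. For Havcr2+ Gzmf- over Gzmk+ cells (1) it was 2 with cells weighted equally, thinned cells and no cycling cells. For Foxp3+ over Foxp3- CD4 cells (4) it was 2 with a mean of at least 50 CPM. In that setting 2.53% of all genes were higher and 2.98% lower, against 2.84% and 3.86% in the main setting. For CD8 over Foxp3- CD4 cells (0) it was 1 with presence at 10 counts, cells weighted equally, thinned cells and no cycling cells. Without cycling cells 2.28% of all genes were higher and 3.54% lower, against 1.56% and 3.21% in the main setting. With presence at 10 counts, cells weighted equally and thinned cells, 1.58%, 1.77% and 1.84% were higher and 3.07%, 3.38% and 3.33% lower. No called ratio changed sign. The shares of all genes past 2-fold also moved in the other comparisons. Without cycling cells they were 3.01% higher and 4.52% lower for Gzmf+ over Gzmf- cells, against 0.545% and 0.507% in the main setting. With cells weighted equally they were 0.945% and 1.21%, with thinned cells 1.10% and 1.84%, and with no level filter 1.46% and 1.88%. In the settings where that count was 0 they ran from 0.342% to 1.64% higher and from 0.0298% to 2.27% lower. For Havcr2+ Gzmf- over Gzmk+ cells they were 3.58% and 3.85% without cycling cells, against 0.566% and 1.25% in the main setting. With cells weighted equally they were 1.19% and 1.92%, and with thinned cells 1.41% and 1.93%. For Pdcd1+ over Pdcd1- Tcf7+ cells they were 6.64% and 6.25% without cycling cells, against 4.79% and 3.41% in the main setting. With thinned cells they were 6.80% and 4.87%, and without the Klra-led cluster 3.52% and 3.26%. The cause of these changes was not tested, except that a level filter removes genes by construction.

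No paired analysis was possible because the mRNA comes from 1 library, and the labels tie no hashtag to an animal or group, so no test over samples was made. Ratios within single hashtags stand in the report as values, and leaving out each hashtag in turn was not run. Counting depth limits Tox2 and, in CD4 cells, Eomes, which rest on few positive cells.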
